A study of Homo sapiens with 4 samples.

Results

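A group of 10 mRNAs of the actin filament and its contractile partners was followed through both tables of N7-methylguanosine (m7G) peaks from U2OS cells, an established human osteosarcoma line. They encode the cytoplasmic actins (ACTB, ACTG1), the actin-binding proteins cofilin, profilin and thymosin beta-10 (CFL1, PFN1, TMSB10), 3 tropomyosins (TPM1, TPM2, TPM4) and the light and heavy chains MYL6 and MYH9 of nonmuscle myosin II. Members were taken as rows whose gene name equals one of these 10 symbols. That gave 18 of 4326 peaks in immunoprecipitated (IP) replicate 1 and 24 of 4862 in IP replicate 2, and all 10 genes had a row in both tables. The study has 4 samples of untreated U2OS cells, 2 input libraries of poly(A) RNA and 2 libraries of the same kind of RNA enriched with an anti-m7G antibody, and no sample differs in genotype or treatment. Each IP replicate has its own table, in which the authors give every peak a position, a fold enrichment of IP over input and a p-value. The input libraries enter through that fold. No read counts stand in the tables, so the depth behind a fold is unknown, and no label states whether replicates came from separate cultures, so their spread may be technical. The RNA came from bulk cultures, where fewer cells carrying a mark and less mark per cell cannot be told apart.

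Actin monomers assemble into polar filaments that carry the cortex, stress fibres and adhesions of mesenchymal cells. Profilin delivers monomers to growing ends, thymosins hold monomers in reserve, and cofilin severs ageing filaments. Tropomyosins coil along the filament and set which proteins may bind it, and nonmuscle myosin II pulls filaments past each other. m7G forms the cap at the 5′ end of mRNA and occurs at internal sites of some transcripts. The antibody recognises the modified base in either place, and whether caps were removed before enrichment is not given in the labels.

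As a check of the cell type, 3 of 7 mesenchymal and osteoblast markers carried a peak in the same place in both replicates (COL1A1, VIM and SPARC). COL1A2, RUNX2 and ALPL had no peak in either table, and THY1 had peaks in replicate 2 alone. A peak in the same place was also found on 1 of 8 striated muscle markers (TNNT2, at 2.67- and 2.35-fold) and 1 of 5 epithelial markers (KRT18, at 2.39- and 1.88-fold). Over all annotated protein-coding genes the share was 10.5%, and counts this small do not decide the cell type. A peak needs the RNA to be present, but a missing peak does not show that the RNA is missing.

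Weak enrichment, mostly at high significance, was common to these mRNAs. A peak was counted as shared when its blocks had at least 1 nt in common with a peak of the other replicate on the same strand, and mutually best overlaps were kept as pairs. All 10 genes had a shared peak, against 10.5% of the 20056 annotated protein-coding genes, a background that includes genes U2OS cells do not express. None of the 10 reached 4-fold in both replicates, which 49.4% of the 2098 genes with a shared peak did. In both replicates 2-fold or more was reached by 4 of the 10 (ACTG1, MYH9, TPM2 and TPM4), against 84.2% of genes with a shared peak. PFN1 was not among them because its 4.23-fold replicate 1 peak was paired with a replicate 2 peak at 1.42-fold. The same replicate 1 peak also overlapped a replicate 2 peak at 3.73-fold, a pair that this rule leaves out. Yet 8 of the 10, all but TPM1 and TPM4, had a shared peak with a log10 p of -10 or lower in both replicates, against 31.6%, a threshold chosen after the values had been seen. The strongest shared peak of a gene was taken as the one whose lower fold of both replicates was highest. Its fold, as the geometric mean of both replicates, had a median of 2.10 over the 10 genes and 4.60 over all genes with a shared peak. The 10 genes were chosen with results of these data known, so these shares describe them and were not tested.

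**Figure D1:**
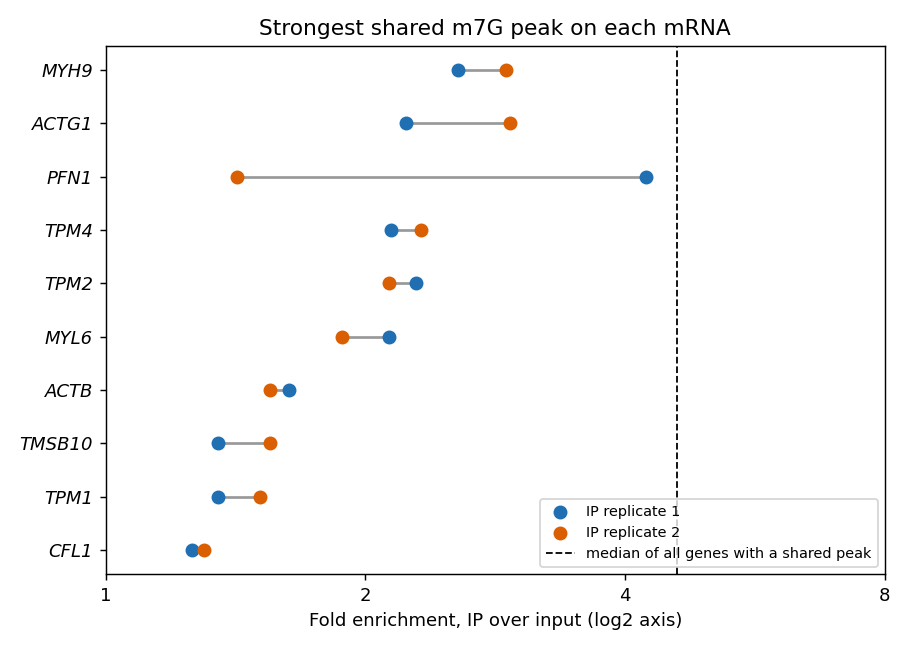
Fold enrichment of IP over input (log2 axis) at the strongest shared peak of each gene, with a point for each IP replicate joined by a line and a dashed line at 4.60, the median over all genes with a shared peak. The points of all 10 genes lie left of the dashed line, and PFN1 has the widest gap between replicates (4.23 and 1.42).

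The order of the geometric mean folds ran from MYH9 (2.73) through ACTG1 (2.56), PFN1 (2.45), TPM4 (2.23), TPM2 (2.21), MYL6 (2.00), ACTB (1.59), TMSB10 (1.45) and TPM1 (1.43) to CFL1 (1.28). Most neighbours in that order did not differ beyond their replicates. MYL6 (1.88 and 2.13) lay above ACTB (1.55 and 1.63) in both replicates without overlap, and TPM1 (1.35 and 1.51) lay above CFL1 (1.26 and 1.30). Among all genes with a shared peak, 24.3% had a lower mean fold than MYH9 and 0.334% a lower one than CFL1. Over the 16 shared peaks on these genes the replicates differed by a median of 0.18 on the log2 scale, a factor of 1.13, beside a median of 0.30, a factor of 1.23, over all 2639 shared peaks. Apart from PFN1 the largest difference was 0.46.

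**Figure D2:**
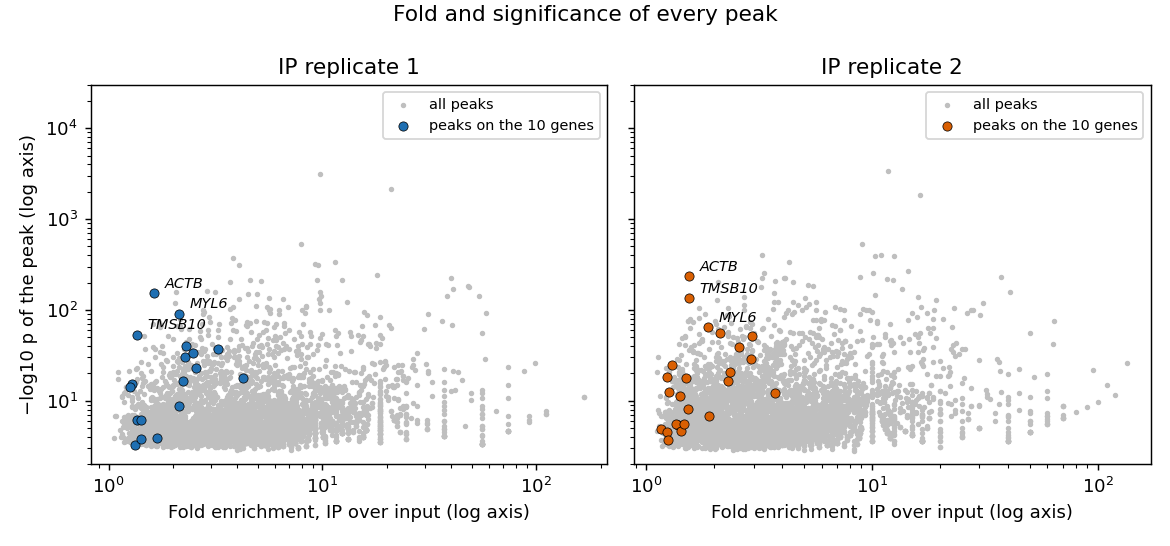
Every peak of each IP replicate by its fold enrichment over input and its -log10 p (both log axes), with the peaks on the 10 genes coloured over all peaks in grey and the 3 most significant of them named. The coloured points keep to the left of the cloud, and ACTB reaches a log10 p of -153 in replicate 1 and -236 in replicate 2 at folds of 1.63 and 1.55.

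Within the tables, all 18 replicate 1 peaks on the 10 genes lay below the table's median fold of 4.27, and 23 of the 24 replicate 2 peaks lay below its median of 3.48. The exception was a PFN1 peak at 3.73. Only 3 of the 18 and 7 of the 24 were less significant than the median peak of their table. These peaks were also long and split over several blocks. Their median length was 286 nt in replicate 1 and 240 nt in replicate 2, beside 151 nt over all peaks of either table. More than 1 block was listed in both replicates for 13 of the 16 shared peaks, against 31.0% of all shared peaks. The gaps between blocks fell at the same coordinates: of 36 gaps in replicate 1 peaks and 43 in replicate 2 peaks that overlapped each other, 33 matched to the base. Exon annotation was not used here, so the gaps were not set against splice sites.

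Both actin mRNAs carried their peak at the 5′ part of the gene. ACTB encodes beta-actin and ACTG1 gamma-actin, the near-identical actins of nonmuscle cells. The ACTB peak lay at chr7:5529162-5530601 on the minus strand in replicate 1, with 3 blocks of 446 nt in all at 1.63-fold. In replicate 2 it lay at chr7:5528691-5530601, with 4 blocks of 476 nt at 1.55-fold. Its 5′ edge fell on the annotated gene start in both, all 446 nt of replicate 1 were also covered in replicate 2, and the mean log2 fold was 0.67 ± 0.05 (SD, n = 2). By significance the peak stood above 99.5% of the peaks of replicate 1 and 99.8% of those of replicate 2, and by fold above 7.10% and 8.84%.

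ACTG1 was more strongly enriched than ACTB in both replicates. Its shared peak lay at chr17:81512286-81512777 in replicate 1 (238 nt, 2.23-fold, log10 p -16.5) and at chr17:81511960-81512807 in replicate 2 (505 nt, 2.94-fold, log10 p -51.1), both on the minus strand. The mean log2 fold was 1.36 ± 0.28 (SD, n = 2). Replicate 2 also listed a weaker peak of 208 nt further downstream, at 1.26-fold, with its midpoint 1742 nt from the annotated start, and nothing overlapped it in replicate 1. The annotation names 14 pseudogenes for ACTB and 21 for ACTG1, and no peak of either table was named for one. The sources used here do not say how reads matching several of these copies were assigned, so both actin folds are uncertain to that extent.

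**Figure D3:**
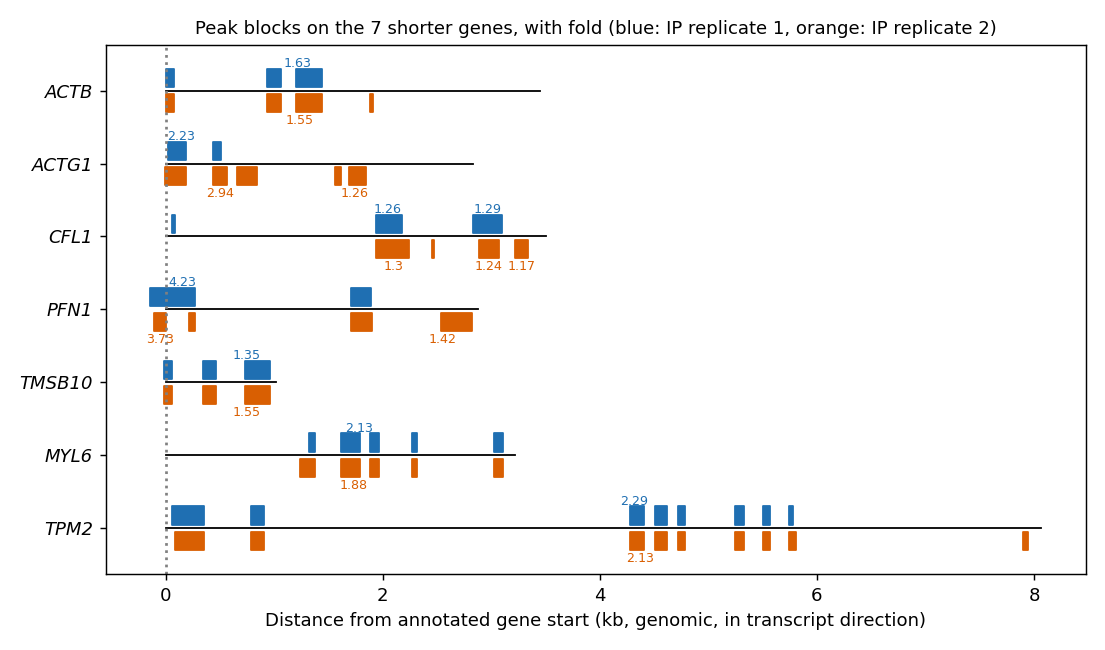
Peak blocks on the 7 genes with the shortest spans, by genomic distance from the annotated gene start in the direction of transcription (kb), with IP replicate 1 in blue above each gene line, IP replicate 2 in orange below it, and each peak's fold printed at its midpoint. TMSB10 has the same 3 blocks in both replicates, while PFN1 has 1 peak over its start and downstream block in replicate 1 and 2 separate peaks in replicate 2 (3.73 and 1.42).

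The peak edge lay within 200 nt of the annotated gene start in both replicates for 4 of the 16 shared peaks, those of ACTB, ACTG1, TMSB10 and TPM2, against 31.5% of all shared peaks. The midpoint, which lies further in when a peak runs over several blocks, was within 200 nt in both replicates for none of the 16, against 20.6% of all shared peaks. PFN1 and TPM1 also had a peak edge that close in both replicates, but in replicate 2 the peak at the start was not the mutually best partner. On PFN1 the midpoints of these overlapping peaks were also within 200 nt, at 155 nt from the annotated start in replicate 1 and -52 nt in replicate 2. The pairing rule kept them out of the midpoint count. The start sequences that peaks reached are shown because the cap sits at this end of the mRNA. They are from RefSeq windows of GRCh38.p14, which cover 250 nt before to 50 nt after an annotated start. Of the 10 genes, 9 matched a window and ACTB did not. In 4 of the 9 genes a window was covered by peak blocks of both replicates. The only TPM1 window is at a start at chr15:63048489, downstream of the gene start at 63042747 from which TPM1 edges were measured. Coverage at that gene start was therefore not counted here. Each stretch is written 5′ to 3′ with the bases inside the blocks of both replicates in capitals, and positions count from 1 at the first transcribed base, with negative positions before it. At most 30 transcribed bases are printed, although the covered part of the TMSB10, ACTG1 and TPM2 windows ran on to base 50. On ACTG1 both replicates covered bases 23 to 50. The TPM2 stretch leaves out the bases before the start, which were covered from -42 on.
PFN1, chr17:4948523-4948641, minus strand, -111 to 8: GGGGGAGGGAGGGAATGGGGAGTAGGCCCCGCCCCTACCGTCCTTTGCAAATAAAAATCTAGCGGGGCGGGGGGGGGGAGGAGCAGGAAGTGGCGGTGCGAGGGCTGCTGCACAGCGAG
TMSB10, chr2:84905639-84905685, plus strand, -17 to 30: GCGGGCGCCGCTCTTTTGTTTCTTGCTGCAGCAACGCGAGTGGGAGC
ACTG1, chr17:81512770-81512807, minus strand, -8 to 30: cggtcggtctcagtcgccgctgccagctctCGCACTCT
TPM2, chr9:35689896-35689925, minus strand, 1 to 30: AGTCCCGCTCCGTCCTCCTCGCCTGCCACC
The PFN1 stretch is the whole second peak of replicate 2, and 56 of its 119 bases (47.1%) are G. Most of these 119 bases lie before the annotated first transcribed base. The TMSB10 stretch holds 17 G in 47 bases (36.2%), the ACTG1 stretch 10 in 38 (26.3%), mostly outside its capitals, and the TPM2 stretch 5 in 30 (16.7%). The stretches differ in length and position, so these shares and the motif counts are not compared between genes. The motif GANGAN was searched on both strands, overlapping matches included. It was found once on the transcript strand of the PFN1 stretch, on neither strand of the TMSB10 and ACTG1 stretches, and at 2 places on the other strand of the TPM2 stretch. It is common, since 89.2% of all 34943 start windows of 300 nt hold it on either strand.

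PFN1, which encodes profilin-1, had the highest folds of the 10 genes, in peaks over its start. In replicate 1 a single peak at chr17:4946636-4948671 on the minus strand joined blocks of 185 and 409 nt at 4.23-fold (log10 p -17.6), and it reached 141 nt beyond the annotated start. Replicate 2 listed 2 peaks in its place. The peak at chr17:4948523-4948641, printed above, covered 119 nt at 3.73-fold (log10 p -12.2). It ran from -111 to 8, so most of it lay before the annotated first transcribed base. The other, at chr17:4945709-4948315, covered 535 nt in 3 blocks downstream at 1.42-fold (log10 p -11.3). The mutually best partner of the replicate 1 peak was the downstream one, with 238 nt in common, which gave a mean log2 fold of 1.29 ± 1.11 (SD, n = 2) and folds that differ by a factor of 2.98. Set against the start peak, which lies whole inside the replicate 1 peak, the folds of 4.23 and 3.73 differ by a factor of 1.13. With that pairing PFN1 would have the highest mean fold of the 10 genes, 3.97, and would reach 2-fold in both replicates. The annotation names 10 pseudogenes for PFN1.

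TMSB10, which encodes the monomer-sequestering thymosin beta-10, had a peak with the same listed coordinates in both replicates. On other genes replicate edges could lie the same step apart, such as 35689997 and 35689967 on TPM2 and 4948671 and 4948641 on PFN1. How finely edges were set is not given, so equal edges need not mean agreement to the single base. At chr2:84905639-84906618 on the plus strand, 3 blocks of 80, 115 and 230 nt were listed with the same edges in both replicates. The folds were 1.35 and 1.55 and the log10 p -53.1 and -134, with a mean log2 fold of 0.53 ± 0.14 (SD, n = 2). The peak began 17 nt before the annotated start and ended 53 nt before the annotated end, so its outer edges took in nearly the whole gene span of 1016 nt. The span of the long noncoding RNA LOC105374836 covers all 425 nt of it, and the table of genes gives no strand for that RNA.

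CFL1, which encodes cofilin-1, had the lowest enrichment. Both its shared peaks lay in the downstream part of the gene on the minus strand. The peak nearer the gene end, at chr11:65855083-65855352 in replicate 1, had folds of 1.29 and 1.24 (log10 p -15.3 and -18.1). The other, at chr11:65856001-65858124 in replicate 1, had 1.26 and 1.30 (log10 p -14.0 and -24.7), with a mean log2 fold of 0.36 ± 0.03 (SD, n = 2). In replicate 1 this second peak included a block of 28 nt that began 56 nt inside the annotated start, and replicate 2 had no block there. Replicate 2 listed another peak of 121 nt at 1.17-fold, 171 nt from the annotated end, with no counterpart. All 5 CFL1 peaks had folds from 1.17 to 1.30. The annotation names 8 pseudogenes for CFL1.

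The 3 tropomyosin mRNAs differed in where their peaks lay. TPM2 encodes beta-tropomyosin. Its peak ran over most of the gene, at chr9:35684282-35689997 with 8 blocks of 916 nt in replicate 1 and chr9:35682111-35689967 with 9 blocks of 975 nt in replicate 2, minus strand. The folds were 2.29 and 2.13, the log10 p -40.2 and -55.3, and the mean log2 fold 1.14 ± 0.07 (SD, n = 2). All 7 gaps of replicate 1 recurred in replicate 2, and 886 nt were covered in both. RefSeq has 2 start windows for TPM2, and the peak covered bases -42 to 50 of the inner one in both replicates and none of the outer one.

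TPM4 had 2 shared peaks, both on the plus strand and both away from its annotated starts. The larger lay at chr19:16082033-16089111 in replicate 1 and chr19:16082033-16089081 in replicate 2, with 4 blocks and 3 identical gaps, at 2.14- and 2.32-fold (log10 p -8.65 and -16.4). It began 14495 nt from the first annotated start, and no peak block of either replicate touched any of the 3 RefSeq start windows of TPM4. The smaller was a single block in each replicate near the annotated end, 61 nt at 1.68-fold and 120 nt at 1.90-fold, with its midpoint 776 nt from the end in replicate 1 and 775 nt in replicate 2.

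TPM1, which encodes alpha-tropomyosin, had weaker peaks that were divided differently between replicates. In replicate 1 a single peak of 4 blocks and 418 nt ran over chr15:63042847-63059623 on the plus strand at 1.35-fold (log10 p -6.16). Replicate 2 had 3 peaks. The first, at chr15:63042788-63044050, began 41 nt inside the annotated gene start at 1.38-fold. The second, at chr15:63057001-63060871, was the mutually best partner at 1.51-fold, and the last, at 1.24-fold, had no counterpart. The mean log2 fold of the pair was 0.51 ± 0.11 (SD, n = 2). In replicate 1, 100 nt separated the peak from the annotated start.

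The peaks on TPM1, at 1.24 to 1.51, did not reach the folds of TPM2, at 2.13 and 2.29, in either replicate. The TPM4 peaks (1.68 to 2.32) spanned the TPM2 values, and the larger TPM4 peak could not be told from TPM2 by its replicates.

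MYL6, which encodes the essential light chain of myosin II, had 1 peak in each replicate, on the plus strand. It lay at chr12:56159684-56161462 in replicate 1 and chr12:56159595-56161462 in replicate 2, with 5 blocks and 4 identical gaps. The folds were 2.13 and 1.88, the log10 p -91.2 and -64.5, and the mean log2 fold 1.00 ± 0.13 (SD, n = 2). All 420 nt of replicate 1 were also covered in replicate 2. The 5′ edge was 1325 and 1236 nt inside the annotated start and the 3′ edge 117 nt from the annotated end in both, so the peak took in the downstream part of the gene and not its start. The annotation names 5 pseudogenes for MYL6.

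MYH9, which encodes the heavy chain of nonmuscle myosin IIA, had the most peaks, 7 in replicate 1 and 8 in replicate 2, with 5 shared pairs. More than 1 shared peak was found on 3 of the 10 genes (MYH9, CFL1 and TPM4), against 19.6% of genes with a shared peak. In replicate 1 MYH9 peaks covered 2195 nt and in replicate 2 3005 nt, and 2014 nt were covered in both. All but 1 of them lay in the last part of a gene that spans 106688 nt. That one, a peak of 121 nt in replicate 2 at 1.48-fold, lay 38841 nt from the annotated start and had no counterpart. No MYH9 peak touched the start window.

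Among the shared pairs, MYH9 folds stood at a lower level near the gene end and at a higher level upstream in both replicates. The order within each level was not the same in both. The peak pair nearest the gene end, at chr22:36282656-36284143 with the same edges in both replicates, had folds of 1.41 and 1.36. The next, beginning at chr22:36284203 in both, had 1.33 and 1.53. Further upstream the folds were higher. The long peak of 8 blocks that starts at chr22:36285278 in replicate 1 had 2.28- and 2.59-fold (990 and 1320 nt), and in replicate 1 the stretch at chr22:36292053-36293417 was listed as a peak of its own at 2.47-fold. The peak at chr22:36294102-36295035 of replicate 1 had 3.24-fold there and 2.36-fold in its replicate 2 partner, a mean log2 fold of 1.47 ± 0.32 (SD, n = 2). The strongest by the lower of both folds, at chr22:36300175-36301537, had 2.56 and 2.91, a mean log2 fold of 1.45 ± 0.13. The values of these 3 upstream pairs, 2.28 to 3.24, did not overlap those of the 2 pairs nearest the end, 1.33 to 1.53. Some peaks found in a single replicate were also weak, at 1.43-fold between the strong pairs in replicate 2 and at 1.41-fold upstream of them in replicate 1.

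**Figure D4:**
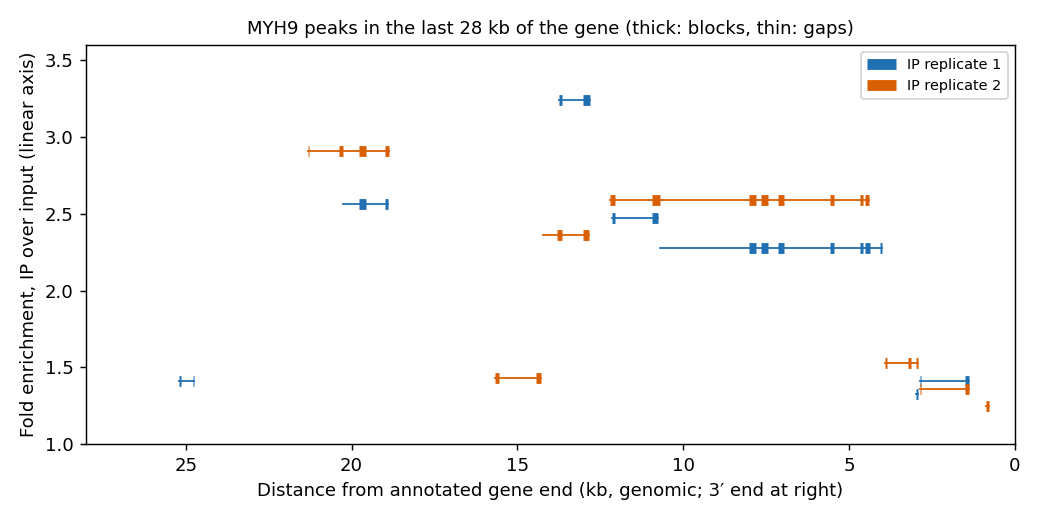
MYH9 peaks by genomic distance from the annotated gene end (kb, with the 3′ end at the right) and fold enrichment over input (linear axis), thick for blocks and thin for gaps, IP replicate 1 in blue and IP replicate 2 in orange. The peaks nearest the gene end sit between 1.25 and 1.53 in both replicates and the long peaks upstream between 2.28 and 3.24, and the replicate 2 peak closest to the gene start is outside the range drawn.

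Peaks seen in a single replicate were few and weak on these genes. In replicate 1, 1 of 18 peaks overlapped nothing in replicate 2, beside 37.4% of all replicate 1 peaks. In replicate 2, 6 of 24 overlapped nothing in replicate 1, beside 44.1%. The highest fold among them was 1.41 in replicate 1 and 1.48 in replicate 2.

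Other genes of the actin machinery, listed by role, were set beside the 10. A shared peak was present on 24 of 95 (25.3%, against 10.5% of all protein-coding genes), with a median fold of 4.11 at the strongest, and 10 of the 24 reached 4-fold in both replicates, a share near the 49.4% of all genes with a shared peak. Cross-linkers and the Arp2/3 complex were not in these lists. None of the other actins, including the muscle actins ACTA1, ACTA2, ACTC1 and ACTG2, had a peak in either table. Some of the closest relatives of the 10 genes had a shared peak and others did not. Among other profilins and thymosins 1 of 6 genes had one, and among other nonmuscle myosin II genes 1 of 6. For TPM3 and the pointed-end caps it was 1 of 8, each beside the 10.5% of all protein-coding genes. TMSB4X, which encodes thymosin beta-4, had 2.28- and 4.74-fold, TPM3 1.33- and 3.02-fold and MYL9, a regulatory light chain, 1.31- and 1.49-fold. Peaks on DSTN, a cofilin relative (2.16), and on PFN2 (2.22) were found in replicate 2 alone, and CFL2, MYH10, MYL12A and MYL12B had none. MYH14, another heavy chain of nonmuscle myosin II, had a peak in each table (13.2- and 27.5-fold) but at different places, and MYL6B had a peak in replicate 1 alone (1.5-fold). Both were named after their values had been seen.

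By role, the shares of genes with a shared peak are to be read beside the 10.5% of all protein-coding genes, and the medians of the strongest peak beside 4.60 over all genes with a shared peak. No test was made between roles. In the cofilin family and its regulators, 4 of 15 genes had a shared peak, led by CAP2, a cyclase-associated protein that recycles monomers (6.17 and 6), LIMK1, a kinase that inactivates cofilin (3.59 and 3.68), and the related kinase TESK1 (2.38 and 2.62), at a median of 3.07. Among capping and severing proteins 3 of 11 did, CAPZB, the beta subunit of capping protein (5.56 and 7.01), ADD1 (3.33 and 12.5) and FLII (2.25 and 2.15), at a median of 6.24. Among myosin II regulators 8 of 23 did, at a median of 3.95, with CDC42BPB, a myotonic dystrophy kinase-related kinase (11.1 and 12.9), and PPP1R12C, a targeting subunit of myosin phosphatase (9.03 and 6.33). Others lay in the range of the 10 genes, such as WDR1 (2.06 and 2.02), a cofilin cofactor, and CALM3, a calmodulin gene (2.11 and 2.29), both named after their values had been seen. Formins and other nucleators had 5 of 16, at a median of 7.36 and all of them at 4-fold or more in both replicates, with the formins DAAM2 (6.61 and 11.2), DAAM1 (11.1 and 6.36) and FMNL3 (12.8 and 4.23). Among the transcription genes of the SRF list, 1 of 4 had a shared peak. That gene was SRF, the transcription factor that drives many actin genes. It had the highest folds of these lists, at 37-fold in replicate 1 and 70-fold in replicate 2 (log10 p -8.65 and -6.54).

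**Figure D5:**
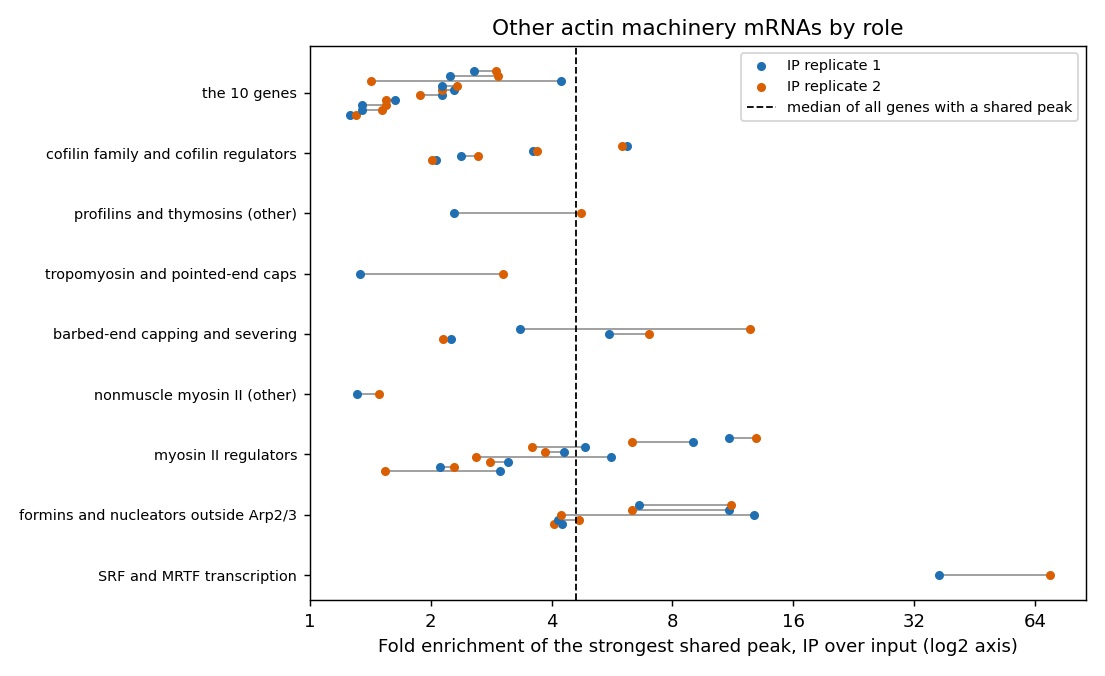
Fold enrichment over input (log2 axis) at the strongest shared peak of the 10 genes and of the other actin machinery genes with a shared peak, by role, a point for each IP replicate joined by a line and a dashed line at 4.60, the median over all genes with a shared peak. The 10 genes lie left of the dashed line in both replicates, the 5 formins lie at 4.05 or above, and SRF lies far to the right at 37 and 70.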

How the data were processed

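The data are peak tables of m7G enrichment in untreated U2OS cells, made from poly(A) RNA before and after antibody enrichment, per the labels' protocols. The submitters' processing notes name STAR and the build GRCh38. The sources used here do not give the peak caller, its settings or its scaling for depth. Each IP replicate has a deposited table with a p-value for each peak, log10 values of p and of the false discovery rate (both kept as a score), and a fold enrichment, a linear ratio of IP over input, per the file headers. The tables hold only peaks past the authors' threshold, so a missing peak gives no level.

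Blocks were compared on the same strand (minimum overlap 1 nt). Names were matched to RefSeq genes (GRCh38.p14) by symbol or synonym within 2000 nt (99.9% and 99.8% of peaks). Repeated rows at the same position (3 and 6) made no extra pairs. Distances are genomic and coordinates 1-based. Replicates are summarised as the mean ± SD of log2 folds. Members and lists were chosen with earlier results of these data known, so no test was made. All 10 members are named, and of other lists up to 3 genes per role by the lower fold of a shared peak, with fixed family members and the muscle actins. A further gene that this rule names is not reported here. The overlap search was tested on 1000 simulated peaks and found 601 of 604 planted pairs, with 1 false pair. These peaks had 1 block each and were shifted whole. The pairing of peaks with several blocks, or of peaks divided differently between replicates, was therefore not tested. Alternatives were stricter overlaps, a stricter false discovery rate, each replicate alone and other summaries. Scripts ran under Python 3.11.15 (numpy 2.4.6, pandas 2.3.3, matplotlib 3.10.9).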

Additional observations from a re-analysis of the deposited data

How the results depend on the processing

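Of 47 alternative values, 38 stayed within 1.5 times the reported count or within the spread between replicates, and 9 moved. The 47 include the lower fold of both replicates for each of the 10 genes. With 2 replicates that value always lies within their SD of the mean, so it could not count as moved. For PFN1 it took the log2 fold from 1.29 to 0.51. With 50% reciprocal overlap, or with midpoints within 100 nt, 7 of the 10 genes had a shared peak and ACTG1, PFN1 and TPM1 did not. Midpoints within 100 nt left 10 shared peaks and a median fold of 1.79. Leaving out a replicate and counting all peaks of the other gave medians from 2.00 to 2.13, 18 to 24 peaks on the 10 genes, 2 peaks with a midpoint near the gene start either way, 0 to 1 gene at a fold of at least 4 (PFN1, in replicate 1 alone) and 33 to 43 other actin machinery genes with a peak. A fold of at least 2 was met by 4 genes, with PFN1 not among them under the pairing used. Within 500 nt of the start lay 1 shared midpoint, and by the 5′ edge of the peak, an alternative chosen after seeing the data, 4 peaks lay within 200 nt. Using every overlapping pair, also chosen after seeing the data, gave 19 pairs and a median fold of 2.10. No paired analysis was possible because the values come from no test, and each table gives folds already set over input, with no separate values for input and IP to pair. With no counts, the depth behind a fold, and so its own interval, is unknown.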
